A study of Mus musculus with 20 samples.

Results

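The 10 genes described here encode hypothalamic neuropeptides other than those of Agrp and Npy, and they were followed in sorted AgRP neurons. They were chosen by symbol: Nts, Gal, Cartpt, Pomc, Sst, Ghrh, Penk, Adcyap1, Crh and Trh. They are 10 of the 23129 named genes in the count table. The libraries were RNA-seq of 1000 sorted cells per sample, from mouse hypothalamus. The study asked how loss of PHF6, a chromatin-binding protein encoded on the X chromosome, and an overnight fast change transcription in these neurons.

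Cells were sorted for tdTomato, a red fluorescent protein that the Ai9 allele makes once Cre has acted. All mice carried AgRP-Cre/+ and Ai9/+ and were of strain C57BL/6 at P25 to P30. The 4 groups of 5 libraries were fasted cKO (Phf6 flox/y; food removed at 5 pm on the previous day, water only), fed cKO, fasted WT and fed WT, the WT mice being littermates. Cre was under control of Agrp in every mouse, as the name of the allele gives it, so the sort takes any cell in which Cre was active at some time, and the control libraries carry the driver and the reporter too. The labels speak of tissue from each mouse but do not say whether a library is 1 mouse, so the p-values measure the spread between libraries. In bulk libraries such as these, fewer cells of a type and less RNA per cell cannot be told apart.

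AgRP neurons of the arcuate nucleus drive feeding and are active during food deprivation. A neuropeptide gene encodes a precursor protein that is cut by prohormone convertases into short peptides, which are stored in dense-core vesicles and act on G protein-coupled receptors. Neighbouring arcuate cells use some of the same peptides: Pomc marks neurons that suppress feeding, Ghrh marks neurons that act on the pituitary, and Sst, Nts, Penk and Gal occur in several neuron types.

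Totals ran from 8542250 to 9282818 counts in fasted cKO, 10604977 to 13573524 in fed cKO, 8494499 to 10000278 in fasted WT and 11500753 to 13060922 in fed WT libraries. Where a gene has no count, up to 3 counts remain possible, which is 0.207 to 0.387 CPM (counts per 1e6 of the library's size), for counting error only. Agrp was at 4259 CPM or more in all 20 libraries. Phf6 averaged 61.2 ± 6.9 CPM in fasted cKO, 70.7 ± 4.85 in fed cKO, 128 ± 11 in fasted WT and 276 ± 10.2 in fed WT libraries (SD, n = 5 each). The fasted libraries fall into sets by replicate number. Replicates 1 and 2 had 11890 and 13740 CPM of Agrp in fasted cKO and 17470 and 17830 in fasted WT libraries, whereas replicates 3 to 5 had 9976 to 10730 in fasted cKO and 13000 to 13250 in fasted WT libraries. Calls of the 10 genes that rest on either set are given with and without it.

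Of the 10 genes, 9 passed the filter on low counts and were tested with edgeR, with Benjamini-Hochberg adjustment over 13237 genes. Ghrh did not pass. A gene is said to rise or fall where its adjusted p is under 0.05.

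**Figure D1:**
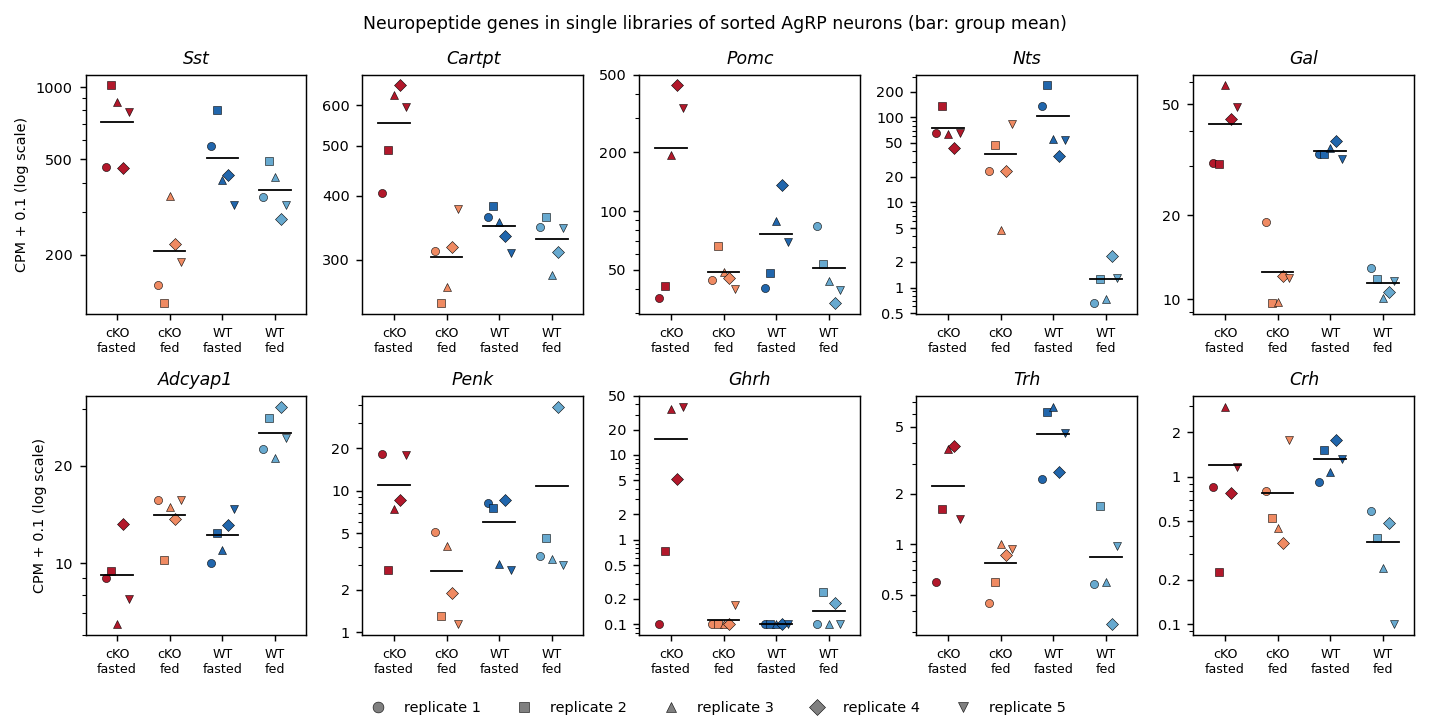
CPM plus 0.1 (log scale) of the 10 peptide genes in each of the 20 libraries, with a symbol for each replicate number and a bar at the group mean. Nts is at 0.552 to 2.26 CPM in fed WT libraries and at 4.62 CPM or more in all other libraries, Pomc and Ghrh are high in fasted cKO replicates 3 to 5, and Penk is high in 1 fed WT library.

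Fed WT neurons had almost no Nts, which encodes neurotensin, a peptide that lowers food intake when given to rodents. Both the fast and the loss of Phf6 in fed mice went with much more of it. Nts was at 65.3, 136, 64.4, 43.8 and 65.3 CPM in fasted cKO replicates 1 to 5, and at 23.0, 47.3, 4.62, 23.4 and 84.6 CPM in the fed cKO ones. It was at 135, 237, 56.2, 35.0 and 54.0 CPM in fasted WT replicates 1 to 5, and at 0.552, 1.15, 0.642, 2.26 and 1.21 CPM in the fed WT ones. Every fasted WT and every fed cKO library lay above every fed WT library, whereas the fasted and fed cKO libraries overlapped.

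By edgeR's quasi-likelihood test with Benjamini-Hochberg adjustment, Nts rose 89.4-fold with fasting in WT neurons (log2 6.48 ± 0.69 SE, adjusted p = 3.99e-09). Fed cKO neurons had 32.0-fold more Nts than fed WT neurons (log2 5.00 ± 0.7 SE, adjusted p = 1.31e-05). In cKO neurons the fasting change was 2.03-fold (log2 1.02 ± 0.46) and did not pass in edgeR (adjusted p = 0.0624). The fasting response was smaller in cKO than in WT neurons, with an interaction of -5.46 ± 0.86 on the log2 scale (edgeR adjusted p = 6.07e-05). Fasted cKO and fasted WT neurons differed by -0.46 ± 0.45, with a 95% interval of -1.38 to 0.46. Without fasted replicates 1 and 2, which held the highest Nts values of fasted WT, the WT fasting change was 5.40 ± 0.5 and the interaction -4.74 ± 0.64 on the log2 scale. With those replicates alone in the fasted groups, they were 7.32 ± 0.52 and -5.87 ± 0.74 for Nts. The cKO fasting change in Nts was near the threshold and passed in edgeR under several alternatives. It was 1.6 ± 0.47 without fed cKO replicate 5, the highest of its group (adjusted p = 0.00544), 1.17 ± 0.48 without fasted cKO replicate 4 (edgeR adjusted p = 0.0439) and 1.45 ± 0.38 without fasted replicates 3 to 5 (edgeR adjusted p = 0.00178). It also passed with no filter on low counts (edgeR adjusted p = 0.031), in a fit of only the fasted and fed cKO libraries (edgeR adjusted p = 0.0291) and with a replicate block (edgeR adjusted p = 0.00705).

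The libraries with the most Nts also held Cga, a pituitary hormone subunit gene. Cga was at 3.88 and 2.91 CPM in fasted cKO replicates 1 and 2 and at 0.358 CPM or less in replicates 3 to 5. It was at 96.3 and 77.2 CPM in fasted WT replicates 1 and 2 and at 0.109 CPM or less in replicates 3 to 5, and it was at 0 in all fed WT libraries. Fed cKO replicate 5 had 2.43 CPM of Cga and the other fed cKO libraries had 0. The pituitary hormone genes Gh and Prl were at 0 in all libraries. Of the other markers on the pituitary list, Pitx1 had 12 counts in fasted WT, 1 in fasted cKO and 0 in fed libraries of either genotype. Lhb had 5 counts in fasted WT libraries and 0 in the other groups. Tshb had 11 counts in fasted cKO, 20 in fed cKO, 15 in fasted WT and 13 in fed WT libraries. The 3 fasted WT libraries with little or no Cga had 35.0 to 56.2 CPM of Nts. The summed level of the astrocyte list, of which 6 of 8 markers passed the filter, was 43.6 to 96.0 CPM in fasted cKO, 29.5 to 61.2 in fed cKO, 34.3 to 66.7 in fasted WT and 9.64 to 19.6 in fed WT libraries. That difference came from Agt, the angiotensinogen gene, which averaged 53.7 CPM in fasted cKO, 35.2 in fed cKO, 35.9 in fasted WT and 5.22 in fed WT libraries. Without Agt, the sum of the other 7 markers was 5.56 to 15.6 CPM in fasted cKO, 3.84 to 7.14 in fed cKO, 5.41 to 26.3 in fasted WT and 5.14 to 16.1 in fed WT libraries, so all 4 groups overlapped. The part of other cells in the Nts values was not tested.

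The Nts gene lies on chromosome 10, at chr10:102481756-102490486 of GRCm38 on the minus strand. Its promoter is printed because Nts had the largest fold changes of the 9 tested genes. Capitals mark matches to the AP-1 motif TGANTCA and, in the shorter stretch, to TGACNTCA, a cyclic AMP response element (CRE) with 1 open base. AP-1 and CREB are transcription factors that act downstream of neuronal activity. Positions count backwards from -1, the first base before the RefSeq start.
Nts, chr10:102490487-102490668, minus strand, -250 to -69: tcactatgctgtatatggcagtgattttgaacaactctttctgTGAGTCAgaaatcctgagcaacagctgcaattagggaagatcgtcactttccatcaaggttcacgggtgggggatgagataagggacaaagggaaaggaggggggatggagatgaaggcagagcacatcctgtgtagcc
Nts, chr10:102490467-102490496, minus strand, -78 to -49: ctgtgtagccaTGACATCAtcctcctgctc

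Galanin, encoded by Gal, is a peptide of several hypothalamic neuron types that promotes feeding. Gal was at 30.8, 30.4, 58.4, 44.4 and 48.8 CPM in fasted cKO replicates 1 to 5, and at 18.8, 9.58, 9.67, 12 and 11.9 CPM in the fed cKO ones. In WT neurons it was at 33.2, 33.1, 34.9, 36.8 and 31.8 CPM when fasted and at 12.8, 11.8, 9.99, 10.5 and 11.5 CPM when fed. Within each genotype all fasted libraries lay above all fed ones, and the genotypes overlapped in either state. Gal is on the marker list of Ghrh and dopamine neurons, and its highest libraries, fasted cKO replicates 3 to 5, also had the most Ghrh counts. What other cells add to the Gal values was not tested. Gal rose with fasting 3.45-fold in cKO neurons (log2 1.79 ± 0.17, edgeR adjusted p = 6.62e-10) and 3.0-fold in WT neurons (log2 1.58 ± 0.17, edgeR adjusted p = 4.13e-09). The difference between these responses was 0.21 ± 0.23 on the log2 scale, with a 95% interval of -0.28 to 0.69. In fed neurons Gal differed between genotypes by 0.12 ± 0.17, with a 95% interval of -0.23 to 0.47. Without fasted replicates 1 and 2, Gal was higher in fasted cKO than in fasted WT neurons by 0.54 ± 0.16 (edgeR adjusted p = 0.00874), against 0.33 ± 0.16 (edgeR adjusted p = 0.15) over all libraries.

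Cartpt encodes the CART precursor, whose peptides are known in arcuate Pomc neurons for lowering food intake. Its level rose with fasting in cKO neurons, no change passed in WT neurons, and the difference between the responses passed its own test. Cartpt was at 404, 490.2, 629, 655 and 596 CPM in fasted cKO replicates 1 to 5, and at 312, 247, 266, 318 and 377 CPM in the fed cKO ones. The WT libraries had 363, 382, 355, 334 and 310.0 CPM when fasted and 348, 364, 280.0, 311 and 347 CPM when fed. All 5 fasted cKO libraries lay above all 15 others, and the other 3 groups overlapped. Cartpt is also on the marker list of Pomc neurons. Its highest libraries, fasted cKO replicates 3 to 5, were those with the most Pomc, at 194, 442 and 337 CPM. The part of other cells in the Cartpt values was not tested.

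Cartpt rose 1.83-fold with fasting in cKO neurons (log2 0.87 ± 0.11, edgeR adjusted p = 1.22e-07). The WT fasting change was 0.08 ± 0.11 with a 95% interval of -0.14 to 0.30, and the interaction was 0.79 ± 0.15 (edgeR adjusted p = 0.000621). Fasted cKO neurons had 1.59-fold more Cartpt than fasted WT neurons (log2 0.67 ± 0.11, edgeR adjusted p = 8.46e-05), and the difference in fed neurons was -0.12 ± 0.11, with a 95% interval of -0.34 to 0.10. Without fasted replicates 3 to 5 this genotype difference was 0.28 ± 0.12 on the log2 scale and did not pass in edgeR (adjusted p = 0.121), and the Cartpt interaction was 0.40 ± 0.14 (edgeR adjusted p = 0.0447).

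Pomc, the precursor of alpha-MSH, which suppresses feeding at the melanocortin receptors that AgRP blocks, varied most among the fasted cKO libraries. It was at 35.5, 41.1, 194, 442 and 337 CPM in fasted cKO replicates 1 to 5, and at 44.1, 66.1, 48.7, 45.0 and 39.8 CPM in the fed cKO ones. The WT values were 40.0, 47.9, 89.1, 136 and 69.4 CPM when fasted and 84.0, 53.6, 43.8, 33.5 and 39.1 CPM when fed. Fasted cKO replicates 3 to 5 were above every other library, while replicates 1 and 2 were among the lowest, so the fasted and fed cKO groups overlapped.

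Pomc rose with fasting in cKO neurons (log2 2.11 ± 0.44, edgeR adjusted p = 0.000217), and it was higher in fasted cKO than in fasted WT neurons (log2 1.46 ± 0.44, edgeR adjusted p = 0.018). These calls rest on replicates 3 to 5: without them the values were -0.35 ± 0.21 (edgeR adjusted p = 0.175) for Pomc with fasting in cKO and -0.18 ± 0.26 (edgeR adjusted p = 0.705) for Pomc in fasted cKO against fasted WT neurons. Without replicates 1 and 2 of both fasted groups, the cKO fasting change in Pomc was 2.73 ± 0.19 and the WT one 0.94 ± 0.21 (edgeR adjusted p = 0.000152), against 0.59 ± 0.44 (edgeR adjusted p = 0.252) in WT over all libraries. The genotype difference in fasted neurons also missed the threshold without fasted cKO replicate 4 (0.99 ± 0.42, edgeR adjusted p = 0.101) and without replicate 5 (1.22 ± 0.45, edgeR adjusted p = 0.0594). With all libraries of both groups kept, it was lost in a robust fit (1.46 ± 0.57, edgeR adjusted p = 0.0823). It was also lost in a fit of only the fasted cKO and fasted WT libraries (1.45 ± 0.53, edgeR adjusted p = 0.0864). The Pomc interaction was 1.52 ± 0.62 over all libraries (edgeR adjusted p = 0.0901) and 1.79 ± 0.29 without fasted replicates 1 and 2 (edgeR adjusted p = 1.12e-05). In fed neurons Pomc differed between genotypes by -0.06 ± 0.44, with a 95% interval of -0.97 to 0.84.

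Nhlh2, a transcription factor gene of Pomc neurons, was read mainly in the same libraries. It was at 0.927, 1.93 and 2.51 CPM in fasted cKO replicates 3 to 5 and at 0 in replicates 1 and 2. Elsewhere it was at 0.0852 CPM in fed cKO replicate 4, at 0.451 CPM in fasted WT replicate 4, at 0.690 CPM in fed WT replicate 1 and at 0 in all others. The fasted WT and the fed WT library with Nhlh2 counts were also those with the most Pomc in their groups, whereas fed cKO replicate 4, with 1 count of Nhlh2, had 45.0 CPM of Pomc and replicate 2 of that group had 66.1. Over the marker list of Pomc neurons without Pomc and Cartpt, 3 of 5 markers passed the filter, and the summed level ran from 45.1 to 63.6 CPM in fasted cKO, 66.6 to 72.3 in fed cKO, 45.9 to 75.6 in fasted WT and 86.9 to 102 in fed WT libraries. By library the sum was 45.1, 45.7, 62.1, 57.65 and 63.6 CPM in fasted cKO replicates 1 to 5, and 75.6, 45.9, 73.1, 75.1 and 67.6 CPM in the fasted WT ones. Most of that sum was Six6 and Tbx3, which averaged 25.9 and 21.8 CPM in fasted cKO and 43.4 and 42.2 in fed WT libraries. Prdm12, on the same list, had 1, 0, 3, 7 and 2 counts in fasted cKO replicates 1 to 5. It had 0 counts in fasted WT, at most 2 in fed cKO and 1 to 4 in fed WT libraries. The part of other cells in the Pomc values was not tested.

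**Figure D2:**
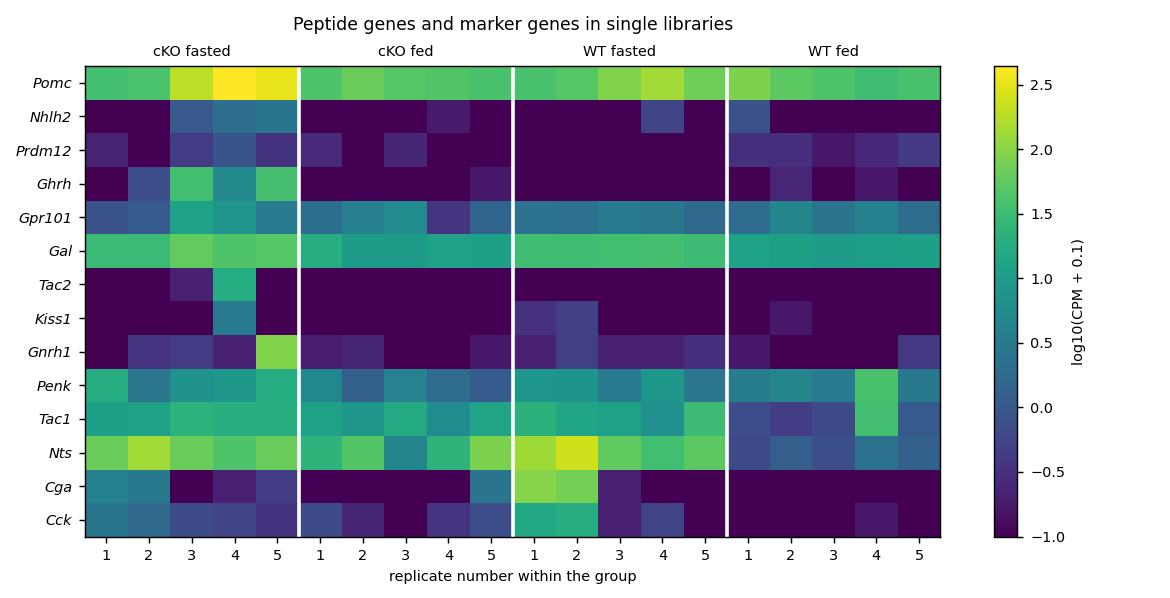
Log10 of CPM plus 0.1 in each of the 20 libraries (columns, by group and replicate number) for peptide genes and markers of other cells (rows). Pomc, Nhlh2 and Ghrh are bright together in fasted cKO replicates 3 to 5, Penk and Tac1 in fed WT replicate 4, and Nts, Cga and Cck in fasted WT replicates 1 and 2.

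Somatostatin, encoded by Sst, inhibits growth hormone release and is made by arcuate and periventricular neurons. Sst was at 465, 1018, 871, 458 and 785 CPM in fasted cKO replicates 1 to 5, and at 150, 125, 352, 222 and 186 CPM in the fed cKO ones. In WT neurons it was at 570, 803, 409, 428 and 323 CPM when fasted and at 348, 490.5, 423, 281 and 322 CPM when fed. All fasted cKO libraries lay above all fed cKO ones, while the WT groups overlapped.

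Sst rose 3.47-fold with fasting in cKO neurons (log2 1.80 ± 0.25, edgeR adjusted p = 6.37e-07). The WT change was 0.44 ± 0.24, with a 95% interval of -0.05 to 0.94, and the interaction was 1.35 ± 0.34 (edgeR adjusted p = 0.00632). Fed cKO neurons had less Sst than fed WT neurons (log2 -0.85 ± 0.24, edgeR adjusted p = 0.025). That call was lost without any 1 of 5 fed libraries, namely WT replicates 2 and 3 and cKO replicates 1, 2 and 5 (edgeR adjusted p = 0.0601 to 0.0829), and in DESeq2 (adjusted p = 0.0615). A robust fit lost it too (edgeR adjusted p = 0.106). In fasted neurons the genotype difference of 0.51 ± 0.24 in Sst did not pass over all libraries (edgeR adjusted p = 0.14) and was 0.86 ± 0.21 without fasted replicates 1 and 2 (edgeR adjusted p = 0.00195). The Sst change of fasted WT neurons was 0.86 ± 0.22 without fasted replicates 3 to 5 (edgeR adjusted p = 0.00116).

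Ghrh encodes growth-hormone-releasing hormone, the counterpart of somatostatin at the pituitary. It had 0, 5, 299, 45 and 312 counts in fasted cKO replicates 1 to 5 and 0, 0, 0, 0 and 1 counts in the fed cKO ones. All 5 fasted WT libraries had 0 counts, and the fed WT libraries had 0, 2, 0, 1 and 0. The 3 fasted cKO libraries with many Ghrh counts were those with high Pomc, and they reached 34.7, 5.11 and 37.3 CPM. Without replicates 3 to 5, 0 and 5 counts remain in fasted cKO. No fold or p is given for Ghrh, since the other groups were at or near 0 and 3 libraries held nearly all of its counts.

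Gpr101, a receptor gene of Ghrh neurons, was at 0.750, 1.01, 12.1, 7.94 and 3.22 CPM in fasted cKO replicates 1 to 5 and between 0.256 and 5.68 CPM in all other libraries. Gsx1, a transcription factor gene of Ghrh neurons, was read only in fasted cKO replicates 4 and 5, at 0.114 and 0.358 CPM. These are 1 and 3 counts, no more than a gene without counts allows, and replicate 3 had 0. Other peptide genes were high in 1 of these libraries alone. Fasted cKO replicate 4 had 17.9 CPM of Tac2 and 2.95 CPM of Kiss1, both made by kisspeptin neurons, and fasted cKO replicate 5 had 90.9 CPM of Gnrh1, the gene of gonadotropin-releasing hormone. The summed level of the marker list of Ghrh and dopamine neurons without Ghrh and Gal, of which 5 of 6 markers passed the filter, was 34.8 to 58.3 CPM in fasted cKO, 27.4 to 44.6 in fed cKO, 34.9 to 41.8 in fasted WT and 37.0 to 56.6 in fed WT libraries. In fasted cKO replicates 1 to 5 that sum was 38.0, 34.8, 50.75, 58.3 and 45.7 CPM. What these other neurons add to the Ghrh result was not tested.

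Adcyap1 encodes PACAP, a peptide of ventromedial and paraventricular neurons that acts through cyclic AMP and can excite AgRP neurons. It was the only tested gene of the 9 that fell with fasting in both genotypes, and it was also lower in fed cKO than in fed WT neurons. It was at 8.88, 9.36, 6.37, 13.2 and 7.64 CPM in fasted cKO replicates 1 to 5, and at 15.6, 10.2, 14.8, 13.6 and 15.6 CPM in the fed cKO ones. The WT libraries had 9.94, 12.3, 10.9, 13.1 and 14.6 CPM when fasted and 22.4, 27.9, 21, 30.4 and 24.3 CPM when fed. All 5 fed WT libraries lay above all 15 others.

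With fasting Adcyap1 fell by 0.62 ± 0.17 on the log2 scale in cKO neurons (edgeR adjusted p = 0.00276) and by 1.05 ± 0.16 in WT neurons (edgeR adjusted p = 1.92e-06). Fed cKO neurons were 0.85 ± 0.15 below fed WT neurons (log2 -0.85, edgeR adjusted p = 0.000373). The difference between the fasting responses was 0.44 ± 0.23, with a 95% interval of -0.04 to 0.91, and did not pass in edgeR (adjusted p = 0.203). In fasted neurons Adcyap1 was -0.42 ± 0.17 in cKO against WT and did not pass (edgeR adjusted p = 0.0877), but it passed without fasted WT replicate 1 (-0.48 ± 0.18, edgeR adjusted p = 0.0487) and without fasted cKO replicate 4 (-0.59 ± 0.17, edgeR adjusted p = 0.0153). Nr5a1 and Fezf1, which define ventromedial neurons, were at 0 in all 20 libraries. The summed level of the ventromedial list without Adcyap1, of which 2 of 5 markers passed the filter, was 27.2 to 64.1 CPM in fasted cKO, 23.0 to 31.4 in fed cKO, 38.5 to 47.8 in fasted WT and 18.0 to 27.0 in fed WT libraries. Nearly all of that sum was 1 gene, Nptx2, which averaged 43.4, 26.7, 42.5 and 21.5 CPM in the same order of groups. Slc17a6, the other marker that passed, averaged 1.90, 1.44, 0.475 and 1.27 CPM. In fasted cKO replicates 1 to 5 Slc17a6 was at 0.250, 1.27, 2.43, 3.06 and 2.51 CPM. What other cells add to the Adcyap1 values was not tested.

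Penk encodes proenkephalin, the precursor of the enkephalin opioid peptides. It was at 18.1, 2.66, 7.30, 8.51 and 17.9 CPM in fasted cKO replicates 1 to 5, and at 4.97, 1.21, 3.99, 1.79 and 1.04 CPM in the fed cKO ones. The WT values were 8.07, 7.49, 2.93, 8.45 and 2.65 CPM when fasted and 3.38, 4.52, 3.21, 39.2 and 2.89 CPM when fed. Fed WT replicate 4 stood far above the rest, and all groups overlapped.

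Penk rose with fasting in cKO neurons (log2 2.08 ± 0.64, edgeR adjusted p = 0.00772). It was lower in fed cKO than in fed WT neurons (log2 -2.04 ± 0.63, edgeR adjusted p = 0.0384), with an interaction of 2.93 ± 0.88 (edgeR adjusted p = 0.0207). Without fed WT replicate 4 these 2 Penk values were -0.45 ± 0.47 (edgeR adjusted p = 0.648) and 1.33 ± 0.63 (edgeR adjusted p = 0.159), and the WT fasting change was 0.74 ± 0.46 in place of -0.85 ± 0.6. The fed call was also lost without fed cKO replicate 2, 4 or 5 (edgeR adjusted p = 0.0873 to 0.103) and with a replicate block (edgeR adjusted p = 0.0922). The Penk interaction was lost without fasted replicates 3 to 5 (2.47 ± 0.99, edgeR adjusted p = 0.0874). A robust fit lost both the fed call (edgeR adjusted p = 0.134) and the interaction (edgeR adjusted p = 0.0857) of Penk. In fasted neurons Penk differed between genotypes by 0.89 ± 0.61, with a 95% interval of -0.37 to 2.15. Penk shares 14.3% of its exon bases with A830012C17Rik on the opposite strand, and the library kits do not mark strand, so reads of the pair cannot be told apart there.

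Fed WT replicate 4 also decides the result for Tac1, the substance P precursor, which is not among the 10 genes and was singled out after its values were seen. Tac1 was at 11.8, 12.3, 22.5, 19.6 and 19.1 CPM in fasted cKO replicates 1 to 5, and at 12, 8.44, 16.9, 5.80 and 13.2 CPM in the fed cKO ones. In WT neurons it was at 22.1, 14.3, 11.9, 6.64 and 31.9 CPM when fasted and at 0.621, 0.359, 0.571, 35.3 and 0.964 CPM when fed. The 4 other fed WT libraries were below every library of the remaining groups. Tac1 had no call over all libraries, with a WT fasting change of 1.22 ± 0.69 (edgeR adjusted p = 0.127) and a fed genotype difference of 0.60 ± 0.68 (edgeR adjusted p = 0.653). Without that library, a choice made after seeing the data, the Tac1 values were 4.78 ± 0.45 (edgeR adjusted p = 7.82e-10) and 4.16 ± 0.45 (edgeR adjusted p = 2.88e-07), with an interaction of -4.19 ± 0.55 (edgeR adjusted p = 8.47e-06).

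Trh and Crh, the genes of thyrotropin-releasing hormone and corticotropin-releasing hormone, are best known from paraventricular neurons and were read at 60 counts or fewer per library. Trh was at 0.500, 1.52, 3.59, 3.75 and 1.31 CPM in fasted cKO replicates 1 to 5, and at 0.349, 0.497, 0.911, 0.767 and 0.832 CPM in the fed cKO ones. The WT libraries had 2.34, 6.07, 6.51, 2.59 and 4.52 CPM when fasted and 0.483, 1.58, 0.500, 0.234 and 0.884 CPM when fed. All fasted WT libraries lay above all fed WT ones, whereas the cKO groups overlapped.

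Trh rose with fasting 3.14-fold in cKO neurons (log2 1.65 ± 0.5, edgeR adjusted p = 0.00635) and 5.90-fold in WT neurons (log2 2.56 ± 0.47, edgeR adjusted p = 3.49e-05). The cKO call for Trh was lost without fasted replicates 3 to 5 (0.57 ± 0.71, edgeR adjusted p = 0.517). The Trh responses differed by -0.91 ± 0.69, with a 95% interval of -2.33 to 0.51. Between genotypes Trh was -1.03 ± 0.44 in fasted neurons (edgeR adjusted p = 0.101) and -0.12 ± 0.52 in fed neurons (edgeR adjusted p = 0.92). Crh had at most 25 counts in any library and rose with fasting in WT neurons (log2 2.16 ± 0.65, edgeR adjusted p = 0.00556), where it averaged 1.22 ± 0.347 CPM when fasted and 0.261 ± 0.193 CPM when fed (SD, n = 5 each). It averaged 1.11 ± 1.06 CPM in fasted cKO and 0.679 ± 0.575 CPM in fed cKO libraries, a change of 0.69 ± 0.59 on the log2 scale that did not pass in edgeR (adjusted p = 0.34). Between genotypes Crh was -0.13 ± 0.59 in fasted neurons (edgeR adjusted p = 0.902) and 1.34 ± 0.66 in fed neurons (edgeR adjusted p = 0.221), and its interaction was -1.47 ± 0.88 (edgeR adjusted p = 0.264). The Crh values of fed WT libraries are close to what a count of 0 allows. Sim1, which defines paraventricular neurons, had 1 count in all 20 libraries together. The summed level of the paraventricular list without Trh and Crh, of which only Avp passed the filter, was 0.836 to 5.19 CPM in fasted cKO, 0.524 to 1.35 in fed cKO, 1.68 to 4.62 in fasted WT and 0.286 to 1.24 in fed WT libraries. Within the fasted groups the sum did not keep the order of Trh or Crh. Fasted WT replicate 2 had the lowest sum of its group and 6.07 CPM of Trh. Fasted cKO replicate 2 had the highest sum of its group and 0.127 CPM of Crh, the lowest there. The part of paraventricular neurons in these results was not tested.

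**Figure D3:**
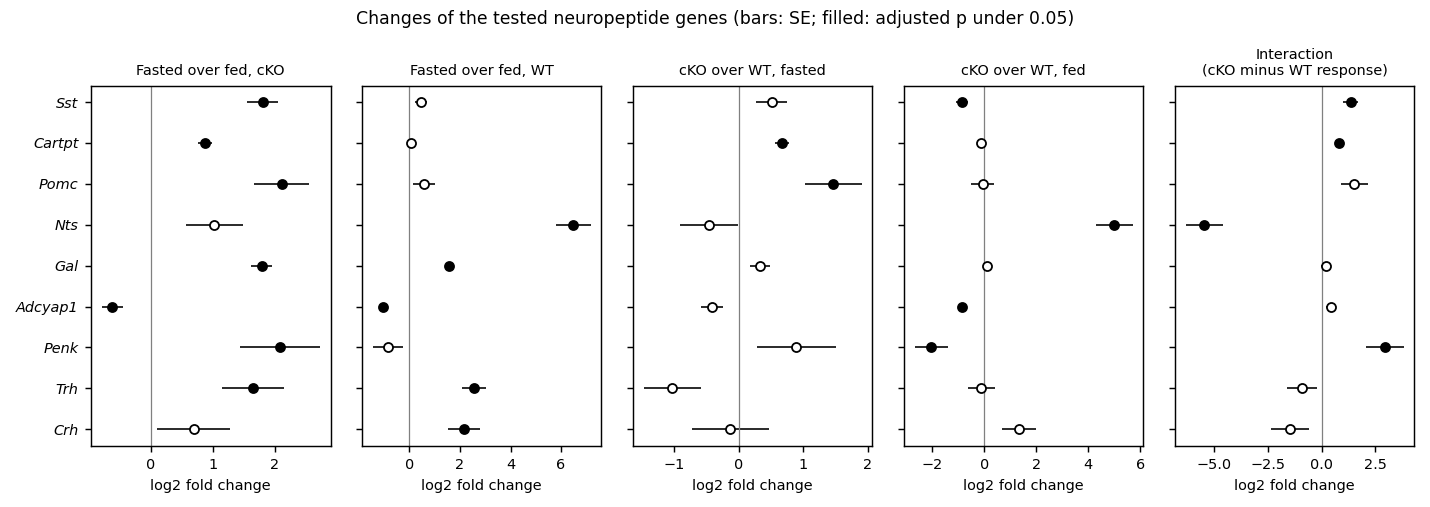
Log2 fold changes (x axis, each panel with its own range) of the 9 tested peptide genes in the 5 comparisons, with bars for the SE and filled points for an adjusted p under 0.05 in edgeR. Nts stands at 6.48 for fasting in WT and at 5.00 for cKO over WT in fed mice, while Cartpt, Pomc and Sst are filled for fasting in cKO and open for fasting in WT.

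Counted together, 6 of the 9 tested genes rose with fasting in cKO neurons (Gal, Cartpt, Pomc, Sst, Penk and Trh) and Adcyap1 fell. Over all genes tested, 53.1% were called in that comparison, 26.0% higher and 27.0% lower. In WT neurons 4 rose (Nts, Gal, Crh and Trh) and Adcyap1 fell, where 60.9% of all genes were called, 29.6% higher and 31.3% lower. The median log2 change of the 9 was 1.65 in cKO and 0.59 in WT neurons, and that of all tested genes was -0.033 in cKO and -0.032 in WT neurons.

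Between genotypes, Nts was higher and Sst, Penk and Adcyap1 were lower in fed cKO than in fed WT neurons, where 9.68% of all genes were called, 5.87% higher and 3.81% lower. Cartpt and Pomc were higher in fasted cKO than in fasted WT neurons, where 20.3% of all genes were called, 11.5% higher and 8.84% lower. Of the genes called in the fasted comparison, 56.5% were higher in cKO, and 43.9% with upper-quartile normalization. The interaction was positive for Cartpt, Sst and Penk and negative for Nts, where 17.3% of all genes were called, 8.87% higher and 8.44% lower. The share of positive calls was 51.2%, and 42.0% with upper-quartile normalization. The median of the 9 genes was -0.12 in fed and 0.33 in fasted neurons and 0.44 for the interaction, and that of all genes was 0.008 in fed and -0.011 in fasted neurons and -0.028 for the interaction. The comparisons share libraries, so their counts are not independent, and a gene read mainly in 1 group had to be high there to pass the filter.

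Per exon length, Sst and Cartpt were the most abundant of the 10 genes in every group. Sst averaged 998 ± 346 CPM per kb in fasted cKO, 287 ± 124 in fed cKO, 703 ± 261 in fasted WT and 517 ± 116 in fed WT libraries (SD, n = 5 each), which in that order are ranks 27, 164, 57 and 57 of 18391 genes with a length. Cartpt averaged 435 ± 82.3, 238 ± 39.7, 273 ± 21.6 and 258 ± 26.7 CPM per kb in the same order of groups, and it overlapped with Sst in fed cKO libraries. In fed WT libraries the order was then Pomc (38.5 ± 15.1 CPM per kb), Gal (14.4 ± 1.41), Adcyap1 (6.67 ± 1.03), Penk (6.51 ± 9.77), Nts (0.931 ± 0.544), Trh (0.532 ± 0.38), Crh (0.197 ± 0.146) and Ghrh (0.0663 ± 0.0972). In this order, the neighbours Adcyap1 and Penk, Penk and Nts, Nts and Trh, Trh and Crh, and Crh and Ghrh do not differ beyond their spread. Nts ranked 1091 in fasted cKO, 1831 in fed cKO, 837 in fasted WT and 10116 in fed WT libraries.

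**Figure D4:**
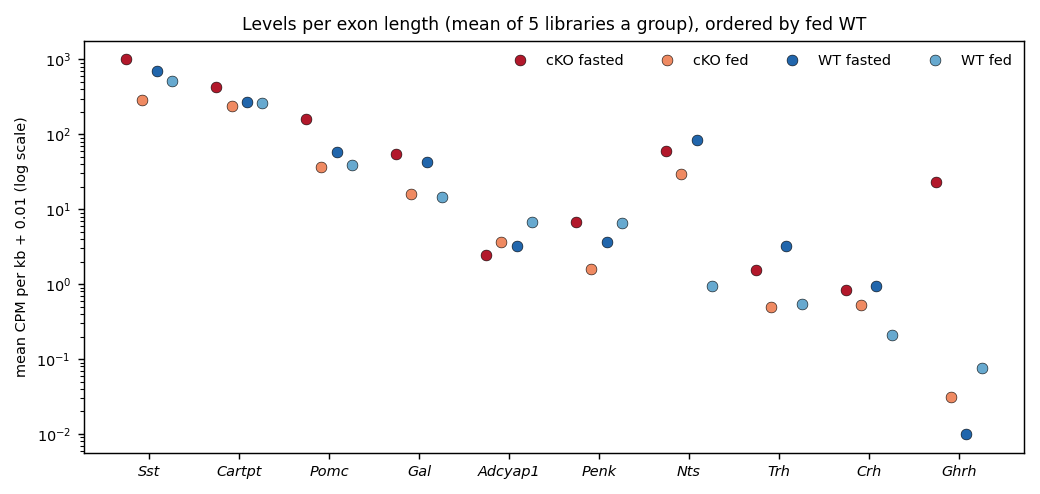
Group means of CPM per kb of exon plus 0.01 (log scale) for the 10 peptide genes, in order of the level in fed WT libraries. Sst is first in each group, Nts has its low value of 0.931 CPM per kb in fed WT, and Ghrh is at 23.2 CPM per kb in fasted cKO and at 0.0663 or less elsewhere.

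Promoters, taken from RefSeq on GRCm38.p6 as 250 bases before to 50 bases after each start, matched 8 of the 10 genes by symbol, with 10 promoters. No entry was found for Crh and Penk. Both strands were searched for 7 motifs of factors known from neuronal activity, fasting and leptin signalling. These were the CRE TGACGTCA, the CRE with an open base TGACNTCA, its shorter form TGACGT, AP-1 TGANTCA, FoxO TGTTTAC, Egr GCGTGGGCG and STAT TTCNNNGAA. The full CRE is also a match to the next 2 of this list. The short stretches around the CRE-like matches are shown to compare the letters, with the match in capitals.
Cartpt, chr13:99900777-99900806, minus strand, -123 to -94: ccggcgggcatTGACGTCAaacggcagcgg
Sst, chr16:23890874-23890903, minus strand, -59 to -30: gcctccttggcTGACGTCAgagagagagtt
Adcyap1, chr17:93198914-93198943, plus strand, -103 to -74: ggactaggatgcTGACGTcttttactgata
Trh, chr6:92244689-92244718, minus strand, -68 to -39: cccctccccgcTGACCTCAcaggcgccgct

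The full CRE was found in Cartpt and Sst, at -112 and -48, and in 1.79% of all 32851 promoters. The open form was in these 2 and in Nts at -67 and Trh at -57, and in 8.83% of all promoters. Adcyap1 held the shorter form at -91 from its first start, which 7.51% of promoters hold, and Nts held AP-1 at -207, which 7.81% hold. The FoxO, Egr and STAT motifs, in 3.65%, 0.612% and 8.30% of promoters, were in none of the 8 genes, and Gal, Pomc and Ghrh held none of the 7 motifs. Of the genes with a match, Cartpt and Sst rose with fasting in cKO neurons, Nts rose in WT neurons, Trh rose in both genotypes and Adcyap1 fell in both. Of the genes without one, Gal rose in both genotypes and Pomc in cKO neurons. A match is a description of letters and not a bound site.

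Among 44 genes of other neuropeptide precursors, Agrp and Npy included, 21 passed the filter. With fasting 13 of them rose in cKO neurons and 8 did not pass, and in WT neurons 15 rose and 1, the gastrin-releasing peptide gene Grp, fell. Over all genes, 26.0% rose in cKO and 29.6% in WT neurons. The call of Grp was lost without fed WT replicate 4. Their median log2 change was 0.89 in cKO and 1.70 in WT neurons. Nucb2, the nesfatin precursor, rose 2.68-fold in cKO neurons (log2 1.42 ± 0.078, edgeR adjusted p = 2.21e-14) and 3.15-fold in WT neurons (log2 1.65 ± 0.078, edgeR adjusted p = 3.47e-16).

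In fed neurons 7 of the 21 were higher in cKO than in WT, with a median of 0.49, and 11 of 27 that passed the filter without fasted replicates 3 to 5. Over all genes 5.87% were higher in the fit of all libraries. In the fit without fasted replicates 3 to 5, 18.6% of all genes were called in either direction, against 9.68% with all libraries. Among the 7 were Nmb (neuromedin B), Npy, Calca (calcitonin gene-related peptide) and Pdyn (prodynorphin). Nmb averaged 105 CPM in fasted cKO, 55.5 in fed cKO, 86.6 in fasted WT and 16.2 in fed WT libraries. Fed cKO neurons had 3.43-fold more Nmb than fed WT neurons (log2 1.78 ± 0.21, edgeR adjusted p = 8.94e-07), without overlap between libraries. Pdyn averaged 23.9 CPM in fasted cKO, 14.1 in fed cKO, 33.7 in fasted WT and 8.52 in fed WT libraries, and its fed difference of 0.73 ± 0.19 (edgeR adjusted p = 0.0123) was lost without fed cKO replicate 2 (0.62 ± 0.19, edgeR adjusted p = 0.0524). Negative interactions passed for 6 genes, which were Npy, Nmb, Pdyn, Agrp, Adm and Prok2, where 8.44% of all genes had one. For Nmb the interaction was -1.5 ± 0.29 (edgeR adjusted p = 0.000547) and for Pdyn -1.22 ± 0.26 (edgeR adjusted p = 0.00147).

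Of 27 genes of receptors and binding proteins of the 10 peptides, 13 passed the filter. With fasting 2 rose and 4 fell in cKO neurons (median 0.13), and 4 rose and 4 fell in WT neurons (median 0.29). These shares are near those of all genes, of which 53.1% were called in cKO and 60.9% in WT neurons. Without fasted replicates 3 to 5, 15 passed the filter, and 5 rose and 3 fell in cKO neurons, where 52.7% of all genes were called. Mc3r, a melanocortin receptor gene, averaged 54.0 CPM in fasted cKO, 91.4 in fed cKO, 43.0 in fasted WT and 106 in fed WT libraries. Mc3r fell with fasting by 0.76 ± 0.11 on the log2 scale in cKO neurons (edgeR adjusted p = 1.32e-06) and by 1.30 ± 0.11 in WT neurons (edgeR adjusted p = 5.24e-11), and the responses differed by 0.55 ± 0.15 (edgeR adjusted p = 0.0137).

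The somatostatin receptor genes moved apart. Sstr2 rose with fasting in cKO neurons (log2 1.56 ± 0.18, edgeR adjusted p = 2.41e-08) and in WT neurons (log2 1.2 ± 0.18, edgeR adjusted p = 1.67e-06), while Sstr1 fell in cKO neurons (log2 -1.42 ± 0.32, edgeR adjusted p = 0.000473) and in WT neurons (log2 -2.19 ± 0.35, edgeR adjusted p = 4.57e-06). Adcyap1r1, the PACAP receptor gene, averaged 91.8 CPM in fasted cKO, 83.7 in fed cKO, 108 in fasted WT and 78.3 in fed WT libraries and rose with fasting in WT neurons (log2 0.47 ± 0.071, edgeR adjusted p = 2.04e-06). Ntsr1, a neurotensin receptor gene, was read at 1.41 CPM in fasted cKO, 0.641 in fed cKO, 1.18 in fasted WT and 0.274 in fed WT libraries. Galr1, a galanin receptor gene, averaged 1.24 CPM in fasted cKO, 0.183 in fed cKO and 1.46 in fasted WT libraries and had no count in any fed WT library.

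Of 13 genes of prohormone processing, 12 passed the filter. With fasting 6 rose and 1 fell in cKO neurons (median 0.29), and 7 rose and 1 fell in WT neurons (median 0.46). As a share called in either direction this is again near the 53.1% of all genes in cKO and 60.9% in WT neurons. The gene that fell was Pcsk1n, a convertase inhibitor, in both genotypes. Its WT call was lost without fasted replicates 1 and 2 (-0.10 ± 0.054, edgeR adjusted p = 0.11) and without fasted WT replicate 1 (edgeR adjusted p = 0.052). Pcsk1, a prohormone convertase gene, averaged 181 CPM in fasted cKO, 97.3 in fed cKO, 197 in fasted WT and 78.3 in fed WT libraries. It rose by 0.90 ± 0.08 in cKO neurons (edgeR adjusted p = 2.81e-10) and by 1.33 ± 0.081 in WT neurons (edgeR adjusted p = 5.87e-14). Pcsk2, a second convertase gene, rose by 0.37 ± 0.08 in cKO neurons (edgeR adjusted p = 0.000292) and by 0.97 ± 0.08 in WT neurons (edgeR adjusted p = 2.61e-11). Negative interactions passed for Pcsk1, Pcsk2, Scg5 and Cpe, where 8.44% of all genes had one. That of Pcsk2 was -0.60 ± 0.11 (edgeR adjusted p = 0.000421). The interaction of Cpe was lost without fasted replicates 3 to 5 (-0.14 ± 0.065, edgeR adjusted p = 0.15) and without fasted WT replicate 5 (-0.31 ± 0.11, edgeR adjusted p = 0.0605).

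As a description of the pattern over the 4 group means of log2 CPM, each centred on its own mean, the nearest of 9966 genes were found by Euclidean distance. They were Svs2 (distance 0.74) and Egr1 (0.98) for Nts, Cds1 (0.05) for Gal, Swt1 (0.06) for Cartpt and Edem1 (0.19) for Pomc. Hist1h1e was nearest to Sst (0.27) and to Penk (0.46), Sidt1 to Adcyap1 (0.21), Dpyd to Crh (0.18) and Gadd45a to Trh (0.18). With 4 means per gene, short distances occur among many genes, and for Nts no gene came nearer than 0.74.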

How the data were processed

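Neurons were sorted and RNA was turned into cDNA with the SMART-Seq v4 kit, 15 cycles of amplification and the Nextera XT kit, which do not mark strand, per the labels' protocols. The authors deposited raw counts per gene for 20 libraries; per the submitters' processing notes the tools include Trimmomatic 0.36, HISAT2 2.1.0, featureCounts of Subread 1.6.2 and DESeq2 1.20.0, and the build is GRCm38 (mm10). The annotation used for counting is not given in the sources used here, nor is the strand setting, and the authors' normalized table was left aside.

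From the counts, 13237 genes that passed edgeR's filter (minimum count 10, minimum total 15; 99.9% or more of each library's counts) entered edgeR 4.0.16 (R 4.3.3, limma 3.58.1). The fit used TMM normalization, 4 group means over 20 libraries and quasi-likelihood tests of 5 contrasts, called at a Benjamini-Hochberg adjusted p under 0.05 over all genes. Log2 fold changes are ± SE and CPM are mean ± SD. CPM use the TMM library sizes, and CPM per kb use exon lengths of GENCODE M21 (GRCm38), as do the coordinates. The steps were tested on simulated counts. Amplified reads are not independent molecules, so limits cover counting error only.

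The 10 genes, the lists of related genes and markers, and the left-out fasted sets were chosen with earlier results of these data known. Each of the 9 tested genes is reported in every comparison, and Ghrh by its counts. From each related list the text draws on up to 6 genes per comparison with the smallest p past the threshold, receptors and ligands of the 10, markers with the highest level or at 0, and the 2 genes nearest in pattern. Tac2, Kiss1, Gnrh1, Cck, Nhlh2, Prdm12, Gpr101, Gsx1, Tac1, Pitx1, Lhb and Tshb were singled out after their values were seen. The alternatives were other normalizations (DESeq2 size factors, upper quartile), a robust fit, no filter on low counts or one at 1 CPM in 5 libraries, a replicate block, a fit of only the groups compared, DESeq2 1.42.0, each library left out, and either fasted set left out.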

Additional observations from a re-analysis of the deposited data

Results flagged for a closer look

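Dixon's test, which flags about 1 in 20 groups by chance, was run for each of the 10 genes in each of the 4 groups. Groups at or near 0 counts were left out. With that many groups searched, a few flags can arise by chance. Within groups of 5 libraries, 3 values stood far from the rest of their group: Nts at 136 CPM in fasted cKO replicate 2, Gal at 18.8 CPM in fed cKO replicate 1 and Penk at 39.2 CPM in fed WT replicate 4. For Penk, leaving that library out ended the call in fed neurons and the interaction. Without its library, Gal rose by 1.98 on the log2 scale with fasting in cKO neurons, against 1.79 with it. For Nts, leaving out fasted cKO replicate 2 changed no call and no sign.

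The fasting response differed between genotypes, by the interaction term of edgeR, for 4 of the 9 tested genes, where 17.3% of all genes were called. The difference, cKO minus WT on the log2 scale, was -5.46 for Nts, 0.79 for Cartpt, 1.35 for Sst and 2.93 for Penk. Nts had the smaller response in cKO neurons, while Cartpt and Sst had the larger one there, and the value for Penk rests on 1 fed WT library.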

How the results depend on the processing

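Of 958 values of single genes under the alternatives, 897 kept their direction and their side of the threshold, 22 lost a call, 19 gained one and 20 changed sign. Leaving out 1 library at a time gave 5 to 6 of the 9 genes called for fasting in WT, 7 to 8 for fasting in cKO, 2 to 4 for cKO against WT in fed and 1 to 3 in fasted neurons, and 3 to 5 interactions. Over all genes it gave 7723 to 7937, 6518 to 6960, 905 to 1022, 2030 to 3193 and 1941 to 2700 calls in the same order, where all libraries gave 8058, 7024, 1281, 2687 and 2291.

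A robust fit called 2 of the 9 genes in fed and 1 in fasted neurons between genotypes, with 1270 and 2694 calls over all 13237 genes. It lost the calls of Sst (edgeR adjusted p = 0.106) and Penk (0.134) in fed neurons and of Pomc in fasted neurons (0.0823). The Penk interaction was lost there too (0.0857). A fit of only the groups compared called 1 of the 9 genes in fasted neurons and lost the call of Pomc. Over all genes that fit made 2952 calls in fed and 1352 in fasted neurons. Without fasted replicates 1 and 2 all 10 genes passed the filter, Ghrh through its 3 high libraries. Gal, Cartpt, Pomc and Sst then differed between genotypes in fasted neurons. Ghrh had to be high in fasted cKO libraries to pass the filter, so its test is not counted. Over all genes 3640 (26.8%) differed there and 3603 interactions (26.5%) passed. Without fasted replicates 3 to 5, 0 of the 9 genes (2 at an unadjusted p under 0.05 in edgeR) and 1682 (12.1%) of all genes differed in fasted neurons. Leaving out these sets was tried in edgeR alone.

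Signs changed as follows, on the log2 scale. Without fasted replicates 1 and 2, Nts was 0.25 and Crh 0.26 for cKO against WT in fasted neurons. Without fasted replicates 3 to 5, Pomc was -0.35 and Crh -0.63 for fasting in cKO, Pomc -0.23 for fasting in WT, Gal -0.10 and Pomc -0.18 for cKO against WT in fasted neurons, and the interaction was -0.22 for Gal and -0.11 for Pomc. Of these, Pomc for fasting in cKO and for cKO against WT in fasted neurons had been called, and no other value that changed sign had been. With 1 library left out, cKO against WT in fed neurons ran from -0.20 to 0.20 for Pomc, -0.34 to 0.36 for Trh and -0.07 to 0.20 for Gal, and cKO against WT in fasted neurons from -0.79 to 0.10 for Nts and -0.87 to 0.15 for Crh. Fasting in cKO ran from -0.05 to 1.35 for Crh and fasting in WT from -1.09 to 0.74 for Penk. The cause was not tested.

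Same-numbered libraries deviated together in 2 of 30 pairs (r over 0.1, range -0.054 to 0.131), fewer than the rule for pairing asks. Both were between fasted cKO and fasted WT libraries, where all 5 same-numbered pairs were positive (0.022 to 0.131) and 4 of 10 libraries correlated best with their own number. With a replicate block, 8090, 7069, 1318, 2785 and 2347 genes were called, the Nts change with fasting in cKO neurons passed (1.19, edgeR adjusted p = 0.00705) and Penk no longer differed between genotypes in fed neurons (-1.55, edgeR adjusted p = 0.0922). Crh, Trh and Ghrh rest on few counts, and depth limits what can be said of them.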
